A study of Homo sapiens with 3 samples.

Results

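FOXM1 ChIP-seq peaks on human chromosome 9 in untreated Huh7 cells are described here by arm, segment and gene. The members are all peaks on chromosome 9 in the peak lists of 2 ChIP libraries, 484 of 8271 peaks in replicate 2 and 661 of 11502 in replicate 3, which is 1145 of 19773 in all. The chromosome was selected on its high share of genes with shared peaks in earlier results of these data, so that share, its arms and its ranks among chromosomes are descriptions with no test. Huh7 is a widely used line from a human hepatocellular carcinoma. From these untreated cells came 3 samples: an input made without antibody, and 2 libraries, replicates 2 and 3, pulled down with antibody G-5 against FOXM1. No label states whether these replicates were separate cultures, so their spread may be technical. There was no control antibody and no line lacking FOXM1, so the specificity of the peaks was not tested, and no expression was measured, so the identity of the cells could not be checked against marker genes.

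FOXM1 is a forkhead transcription factor that drives the late cell cycle, G2 and mitosis, where it is recruited to promoters both through its forkhead DNA-binding domain and through other factors such as the MuvB complex. Its levels are high in proliferating cells and in many liver cancers. Chromosome 9 carries the tumour suppressor genes CDKN2A and CDKN2B and the type I interferon cluster on its short arm (9p), a large block of heterochromatin and duplicated gene families around its centromere, and a long arm (9q) that ends in a gene-rich stretch with NOTCH1.

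A locus is called shared where peaks of both libraries overlapped by at least 1 bp, and the peaks of chromosome 9 merged into 332 such loci. A protein-coding gene is called bound where the summit of a shared locus, the midpoint of both libraries' summits, lay within 1 kb of either end of the gene. An end can thus be where a gene starts or where it finishes. Fold enrichment and −log10 q are the authors' values for each peak, and the lower fold of the 2 libraries is used to rank loci. The fragments over a summit and the local background, both in fragments, were rebuilt from the deposited fold and p. A missing peak says only that the calling threshold was not passed, since the lowest −log10 q on chromosome 9 was 1.39 in replicate 2 and 1.32 in replicate 3.

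The stretches of DNA just upstream of annotated starts are shown first, because starts with a shared summit differed in base composition from those without one. The sequences are from RefSeq (GRCh38.p14), each 120 bases, written 5′ to 3′ on the strand of the gene, with GC boxes (GGGCGG or its complement CCGCCC) in capitals. The first 8 hold the summit of a shared locus, 6 on 9q and 2 on 9p (GLIPR2 and UBE2R2), and the last 2 belong to genes with no peak within 1 kb, an interferon gene and an olfactory receptor gene.
PHF2 (chr9:93576380-93576499, plus strand): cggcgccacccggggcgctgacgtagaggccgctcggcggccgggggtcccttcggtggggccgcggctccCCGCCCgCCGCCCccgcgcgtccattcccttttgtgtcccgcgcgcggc
SECISBP2 (chr9:89318380-89318499, plus strand): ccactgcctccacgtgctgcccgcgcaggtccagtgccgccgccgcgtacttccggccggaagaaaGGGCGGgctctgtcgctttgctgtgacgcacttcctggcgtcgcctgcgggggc
DENND1A (chr9:123930140-123930259, minus strand): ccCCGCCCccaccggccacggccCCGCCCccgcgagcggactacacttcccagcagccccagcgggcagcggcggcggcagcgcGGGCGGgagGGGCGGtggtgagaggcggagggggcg
HABP4 (chr9:96450049-96450168, plus strand): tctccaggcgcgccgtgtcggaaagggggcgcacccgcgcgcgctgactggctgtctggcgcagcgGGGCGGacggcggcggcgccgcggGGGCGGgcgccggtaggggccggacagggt
NACC2 (chr9:136095418-136095537, minus strand): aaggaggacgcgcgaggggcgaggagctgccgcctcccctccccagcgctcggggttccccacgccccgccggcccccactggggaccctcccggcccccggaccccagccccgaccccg
ZBTB34 (chr9:126860519-126860638, plus strand): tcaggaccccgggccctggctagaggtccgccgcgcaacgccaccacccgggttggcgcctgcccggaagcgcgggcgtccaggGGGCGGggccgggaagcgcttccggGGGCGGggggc
GLIPR2 (chr9:36136416-36136535, plus strand): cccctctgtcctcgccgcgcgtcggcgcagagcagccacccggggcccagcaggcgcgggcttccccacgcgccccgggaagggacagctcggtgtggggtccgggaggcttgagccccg
UBE2R2 (chr9:33816910-33817029, plus strand): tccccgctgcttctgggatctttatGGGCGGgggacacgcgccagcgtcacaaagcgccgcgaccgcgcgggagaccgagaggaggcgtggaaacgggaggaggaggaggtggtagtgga
IFNA1 (chr9:21440319-21440438, plus strand): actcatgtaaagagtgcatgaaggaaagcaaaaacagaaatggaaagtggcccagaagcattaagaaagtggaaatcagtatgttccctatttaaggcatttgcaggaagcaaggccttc
OR13C2 (chr9:104605628-104605747, minus strand): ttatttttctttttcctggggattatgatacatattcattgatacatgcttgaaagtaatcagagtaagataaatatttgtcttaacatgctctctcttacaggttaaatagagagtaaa

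The 8 stretches with a summit had G and C contents between 67.5% (UBE2R2) and 83.3% (DENND1A). IFNA1 had 40.8% and OR13C2 had 28.3%. DENND1A held 4 GC boxes, PHF2, HABP4 and ZBTB34 held 2 each, and NACC2 and GLIPR2 held none in the stretch shown. A summit in these stretches therefore came with or without a GC box. The summit lay 144 bases upstream of the start at PHF2, 56 at SECISBP2, 73 at DENND1A, 57 at HABP4, 188 at NACC2 and 7 at ZBTB34. It lay 4 bases upstream at GLIPR2, and 246 bases upstream of an annotated start of UBE2R2 that is inside that gene. Fold at these loci was 4.97 in replicate 2 and 4.90 in replicate 3 at HABP4 (34 and 32 fragments), which encodes a hyaluronan-binding protein, and 4.83 and 5.73 at NACC2 (33 and 32 fragments), a transcriptional repressor gene. At UBE2R2, a ubiquitin-conjugating enzyme gene, it was 5.26 and 3.84 (30 and 20 fragments), the least even pair of the 8.

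Chromosome 9 held more shared loci than its share of genes or of length. It held 5.94% of autosomal peaks in replicate 2 (exact Clopper-Pearson 95% interval 5.43 to 6.47) and 5.82% in replicate 3 (5.40 to 6.27). Of 5316 autosomal shared loci it held 6.25% (5.61 to 6.93), against 4.07% of protein-coding genes (778 of 19126) and 4.47% of the length spanned by genes. These intervals, like all others here, cover counting error only.

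Of its 778 protein-coding genes 221 were bound, 28.4% (25.3 to 31.7). The share over all autosomes was 19.9%, and over the other autosomes it was 19.5%. Only chromosomes 20 (35.8%) and 22 (28.8%) had a higher share. Per 100 protein-coding genes chromosome 9 had 42.7 shared loci, against 27.2 on the other autosomes, and only chromosome 20 had more (51.8). By gene density chromosome 9 ranked 11 of the 22 autosomes at 6.45 protein-coding genes per Mb, below the 7.11 of the other autosomes. Chromosomes 20 and 22 ranked 7 and 3 by gene density. The part of gene density in the share of bound genes was not tested. Each library alone gave the same direction. A peak of replicate 2 lay within 1 kb of an end of 34.6% of the genes of chromosome 9 and of 26.0% over all autosomes. In replicate 3 these shares were 44.2% and 33.2%.

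**Figure D1:**
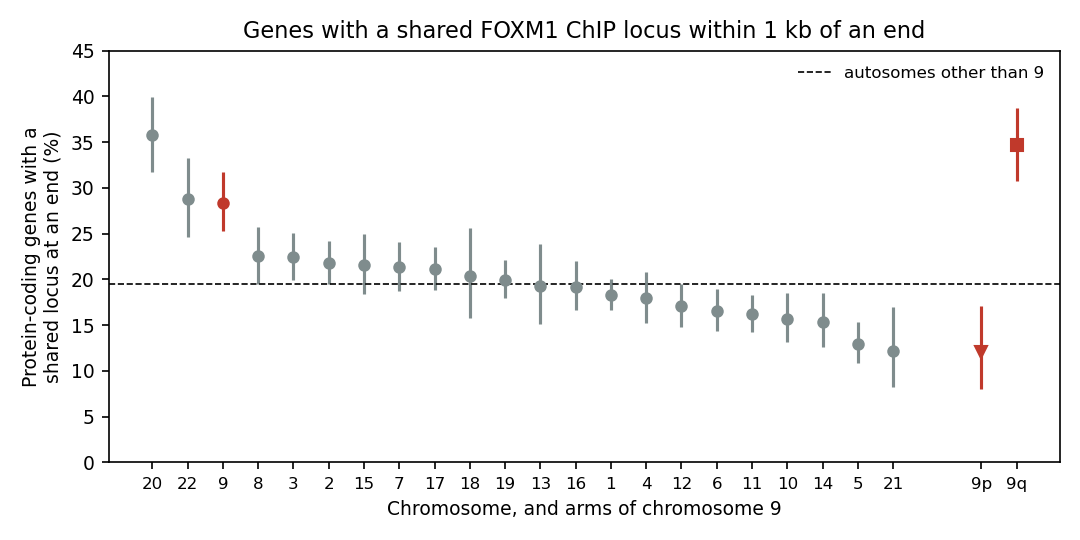
Share of bound protein-coding genes (y axis, percent) for each autosome in falling order and for the arms of chromosome 9 (x axis), with exact 95% intervals as bars and the share over the other autosomes as a dashed line. Chromosome 9 stands behind 20 and 22 at 28.4%, with 9p at 12% and 9q at 34.7%.

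Stricter rules lowered all shares and also the gap in percentage points. With a −log10 q of at least 5 in both lists, 7.84% of the genes of chromosome 9 and 4.45% of those of the other autosomes were bound, while the share of autosomal shared loci on chromosome 9 was 7.07%. With a fold of at least 4 in both lists the shares were 7.2% and 5.97%, with 5.25% of the shared loci. That gap, 1.22 points, was below the standard deviation of the gap between the 2 single libraries, 1.83 points. With summits within 100 bp of each other the shares of genes were 14.4% and 11.1%. The loci of chromosome 9 were not stronger than others. Their median lower fold was 3.49, against 3.56 on the other autosomes, and chromosome 9 ranked 18 of 22. The highest fold on the chromosome was 6.60 in replicate 2 and 6.46 in replicate 3, against 8.09 and 8.94 on the other autosomes.

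Peaks of 9q recurred between the libraries somewhat more often than those of the other autosomes, and peaks of 9p less often. In replicate 2 73.8% of its peaks overlapped a peak of replicate 3, against 69.3% on the other autosomes, and in replicate 3 the shares were 52.2% and 49.4%. On 9q they were 75.2% and 53.2%, and on 9p 64.6% and 46.3%. The fold of a locus agreed less well: across the 332 loci the Spearman correlation of fold between libraries was 0.29 (Pearson 0.31), against 0.40 (0.42) over 4984 loci of the other autosomes. Taken singly, the 22 autosomes ran from 0.22 (chromosome 16) to 0.64 (chromosome 11) in Spearman correlation, and chromosome 9 ranked 15. These correlations are across loci of the same 2 libraries and are descriptions. Summits of the 2 libraries lay within 100 bp of each other at 166 of the 332 loci, and 179 loci had the higher fold in replicate 3. The order of single loci by fold is therefore uncertain, and the widest gaps were at WHRN (2.81 in replicate 2 and 5.96 in replicate 3) and at NRARP (3.31 and 6.46).

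**Figure D2:**
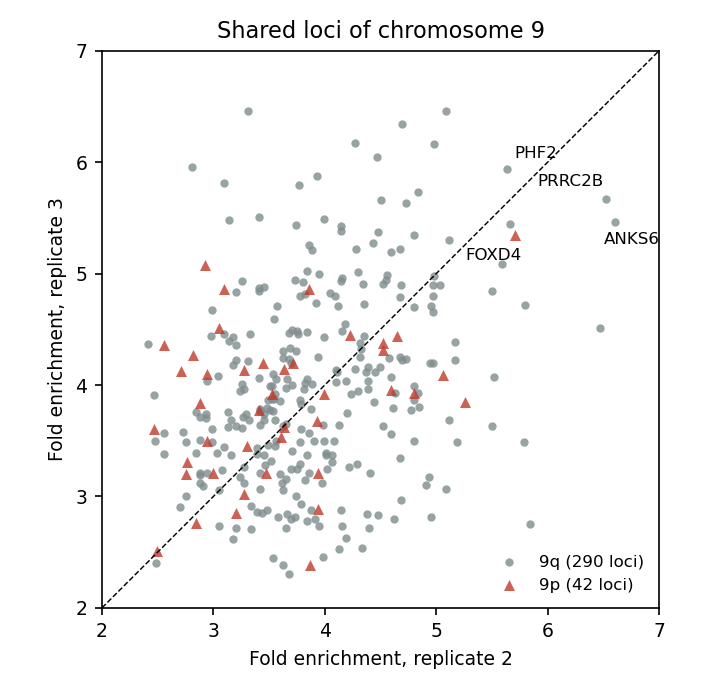
Fold enrichment of the 332 shared loci of chromosome 9 in replicate 2 (x axis) and replicate 3 (y axis), one point a locus, with 9p as red triangles and 9q as grey circles; the dashed line marks equal fold. The points scatter widely around the line (Spearman 0.29), and PRRC2B, PHF2 and ANKS6 are the 9q loci with the highest lower fold, while FOXD4 marks the highest on 9p.

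The arms differed more than the chromosome did from the rest of the genome. On 9q 195 of 562 protein-coding genes were bound, 34.7% (30.8 to 38.8), and on 9p 26 of 216 were, 12% (8.02 to 17.1). The 9q arm held 290 shared loci, or 51.6 per 100 genes, and 9p held 42, or 19.4 per 100 genes. Among all autosomes the share was 19.9%, so 9q stood above it and 9p below it. The lists give no replicate groups for a test of this difference, but each library alone showed it: 40.4% against 19.4% of genes in replicate 2 and 52.0% against 24.1% in replicate 3. The arms were divided in the 17.7 Mb without genes between positions 43139880 and 60832662.

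Both arms were themselves uneven, and segments bounded at 35 and 125 Mb, chosen after the values were seen, describe this. Below 35 Mb on 9p only 7 of 155 genes were bound, 4.52% (1.83 to 9.08). Between 35 Mb and the centromere 19 of 61 were bound, 31.1% (19.9 to 44.3). On 9q 89 of 328 genes below 125 Mb were bound, 27.1% (22.4 to 32.3), and 106 of 234 above it, 45.3% (38.8 to 51.9). The low share of 9p thus came mostly from its outer 35 Mb.

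The end of 9q was the densest stretch of loci on the chromosome. It had 17.7 protein-coding genes and 11.9 shared loci per Mb, which is 67.1 loci per 100 genes. In 5 Mb windows the share of bound genes was 39.5% from 125 to 130 Mb, 39.7% from 130 to 135 Mb and 54.4% (49 of 90) from 135 to 140 Mb. Among the 82 autosomal windows with at least 60 protein-coding genes these 3 windows ranked 11, 10 and 2. Together they had 45.3% of their genes bound, against 19.9% (1526 of 7656) in the 79 such windows of the other autosomes. In windows of 40 to 59 genes the shares were 22% on chromosome 9 and 21.3% elsewhere, in windows of 20 to 39 genes 24.2% and 19.5%, and in windows of under 20 genes 15.3% and 16.1%. The gap was thus widest in the gene-dense windows. Without 135 to 140 Mb the share of bound genes on the chromosome was 25%.

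Smaller stretches went against their surroundings. From 95 to 100 Mb 18 of 38 genes were bound (47.4%), and from 100 to 105 Mb only 2 of 28 (7.14%). The latter window holds the whole of a stretch from 101028781 to 104764326, 3.74 Mb with 19 protein-coding genes and no peak summit of either library, which holds olfactory receptor genes. Outside the gene-free stretch around the centromere, the longest stretch without a summit lay on 9p between 25678249 and 32384725, 6.71 Mb with 12 protein-coding genes.

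The local background under the peaks also differed between segments, and its part in the share of bound genes was not tested. On 9p below 35 Mb its median was 4.0 fragments in replicate 2 (quartiles 3.43 to 4.47) and 3.74 in replicate 3 (3.26 to 4.76). Above 35 Mb it was 7.09 (5.42 to 10.6) and 6.22 (5.0 to 10.5). The 9q segments had medians of 5.57 and 5.49 below 125 Mb and 5.67 and 5.49 above it. The gene-dense end of 9q thus had nearly the same background as the rest of 9q, while the inner part of 9p stood apart from all 3 other segments.

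**Figure D3:**
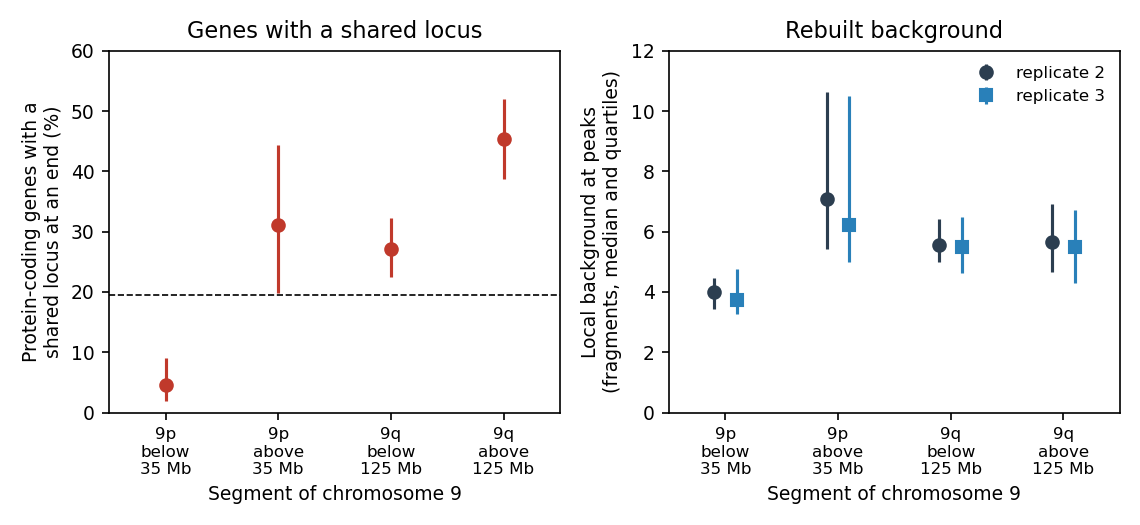
Left, share of protein-coding genes with a shared locus at an end (percent, exact 95% intervals) in the 4 segments of chromosome 9, with the other autosomes as a dashed line. Right, local background at peaks (fragments, median with quartiles) in replicates 2 and 3. The share is lowest on 9p below 35 Mb (4.52%) and the background is highest on 9p above 35 Mb (7.09 and 6.22).

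The background on 9p stepped up near 35 Mb and was higher still from 37 to 38 Mb. From 34 to 35 Mb the median background was 4.0 fragments in replicate 2 and 3.42 in replicate 3, and 1 of 24 genes was bound. From 35 to 36 Mb it was 6.15 and 5.49, with 9 of 30 genes bound. From 37 to 38 Mb it was 10.7 and 10.5, with 6 of 12 genes bound, while the median fold was 2.93 and 3.16. The locus at DCAF10, a substrate receptor of a ubiquitin ligase, had 54 and 56 fragments with fold 2.93 and 5.08. From 38 to 39 Mb 0 of 4 genes were bound. The median background there was 4.5 fragments over 4 peaks in replicate 3, with 0 peaks in replicate 2. Above 35 Mb 17 of 38 peaks in replicate 2 and 20 of 51 in replicate 3 had a background of at least 8 fragments. Below 35 Mb on 9p it was 3 of 27 and 1 of 44. Over the whole chromosome the share of such peaks was 11.6% and 14.4%, against 13% and 12.1% on the other autosomes. The median background of its peaks was 5.54 fragments in replicate 2 and 5.37 in replicate 3, against 5 in each elsewhere. By this median chromosome 9 ranked 5 and 4 of the 22 autosomes. The part of background in its share of bound genes was not tested.

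Shared loci lay mostly at gene ends. Of the 332 loci 219 (66.0%, 60.6 to 71.0) were at an end of a protein-coding gene by the 1 kb rule, against 69.5% on the other autosomes. A further 90 (27.1%) lay inside a gene and 23 (6.93%) between genes. The share at ends was 61.9% on 9p (26 of 42) and 66.6% on 9q (193 of 290). Nearest to the 1 kb limit, FOXE1 (939 bp) and GRIN1 (986 bp) counted as bound, while PPP1R26 (1021 bp) and SNX30 (1090 bp) did not.

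The RefSeq start table has strand and alternative starts, and had an entry for 677 of the 778 genes. Over the autosomes with entries, chromosome 9 included, it covered 15101 of 18411 genes, a lower share. Within 1 kb of an annotated start lay 241 of the 332 loci (72.6%, 67.5 to 77.3), against 65.6% (3128 of 4769) on the other autosomes with entries in the table. The part of the uneven coverage in this difference was not tested. By gene ends the order was the other way, 66.0% on chromosome 9 and 69.5% on the other autosomes. Only 6 loci (1.81%) were near the finish of a gene and not near a start. Of the 241 loci 153 (63.5%) had their summit downstream of the start, with a median position of 55 bases downstream, against 68 elsewhere. Shared loci thus sat around starts, to either side, on chromosome 9 as elsewhere. At 14 loci the summit lay within 1 kb of the starts of 2 genes that face away from each other, 5.81% of loci at starts against 6.43% elsewhere. Among them were ALG2 and SEC61B, NOL8 and CENPP, DOLK and NUP188, and EXD3 and NOXA1.

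The starts with a shared summit were rich in G and C. The start windows of the table run from 250 bases before a start to 50 after it, 300 bases in all, and chromosome 9 had 964 of them. The 112 windows holding a shared summit had a median G and C content of 75.5% and 39 CpG dinucleotides, and the 852 without one had 62.7% and 20. On the other autosomes the G and C medians were 75.3% and 61.3%. The composition under summits was thus nearly the same on chromosome 9 and elsewhere.

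Within each of 4 broad classes of composition, a higher share of genes had a shared summit on chromosome 9 than elsewhere. A gene with several start windows was classed by the window richest in G and C, while a summit counted at any of its starts. These classes do not make composition equal, the share is the kind of value on which the chromosome was selected, and the part of composition in the excess was not tested. With 75% or more G and C in the window, 106 of 135 genes of chromosome 9 had a shared summit within 1 kb of a start, 78.5% (70.6 to 85.1), against 55.8% (53.8 to 57.9; 1282 of 2297) on the other autosomes. With 65 to 75% the shares were 35.1% (29.2 to 41.3) and 28% (26.7 to 29.3). With 55 to 65% they were 11.9% and 8.44%, and under 55% they were 7.02% and 1.78%. On 9q above 125 Mb 57 of 67 genes in the richest class had a shared summit (85.1%, 74.3 to 92.6). On 9p below 35 Mb it was 6 of 11 in the richest class (54.5%), 6 of 47 (12.8%) in the class of 65 to 75% and 0 of 39 in the class of 55 to 65%, none of them above the other autosomes. In the class under 55% it was 1 of 40 (2.5%), which is above the 1.78% of the other autosomes but rests on 1 gene.

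**Figure D4:**
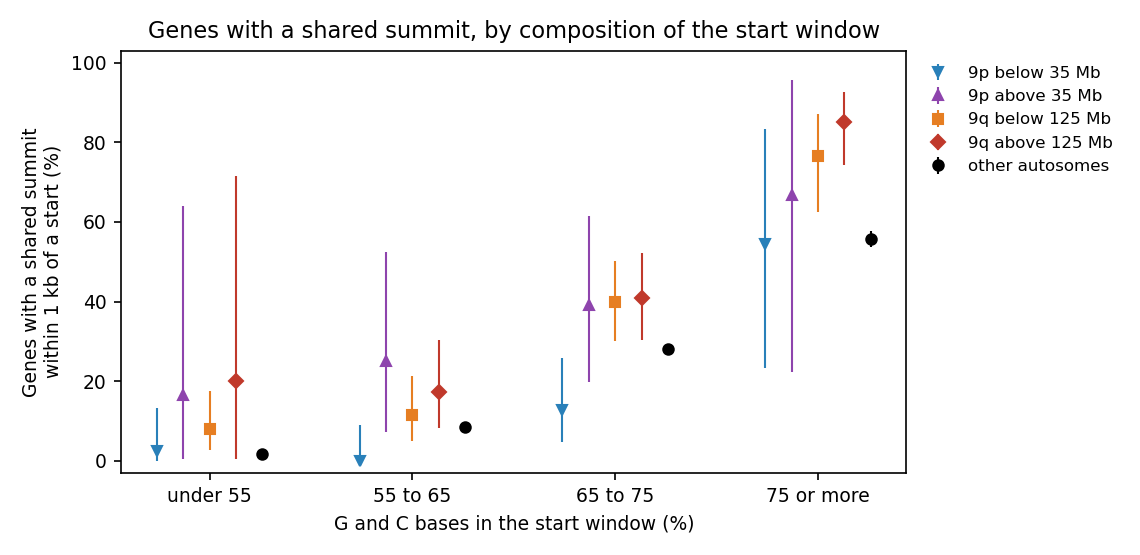
Share of genes with a shared summit within 1 kb of any annotated start (y axis, percent, exact 95% intervals) by the G and C content of the gene's richest start window (x axis, percent), for the 4 segments of chromosome 9 and the other autosomes (black). The share rises with G and C content in every segment except between the first 2 classes on 9p below 35 Mb and on 9q above 125 Mb, and in the richest class 9q above 125 Mb (85.1%) stands above the other autosomes (55.8%).

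Letters of known motifs were counted on both strands in the same windows. The GC box GGGCGG was in 91.1% of the 112 windows with a shared summit, in 56.7% of the 852 without and in 56.6% of all autosomal windows. The forkhead motif TGTTTAC was in 0 of the 112 windows (exact upper limit 3.24%). Its variant TGTTTGC was in none of them either, nor was the related form TATTTAC. At least 1 of these 3 forms was in 75 of the 852 windows without a summit (8.80%). The share over all autosomal windows was 8.0%, and over windows of the other autosomes with a shared summit it was 3.14%. Their core TGTTT, which TGTTTAC and TGTTTGC contain, was in 10.7% of windows with a summit, 38.3% without and 38.1% of all.

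Motifs known from cell cycle and other promoters differed in both directions. CCAAT was in 20.5% of windows with a summit, 31.8% without and 34.4% of all autosomal windows. The cell cycle homology region was searched as TTTGAA (4.46%, 11.5% and 12.4% in the same order) and as TTCGAA (2.68%, 1.76% and 1.53%). The ETS letters CCGGAAG were in 22.3%, 11.4% and 12.9%, the E-box CACGTG in 13.4%, 7.51% and 8.25%, and the TATA box TATAAA in 3.57%, 8.80% and 9.51%. The cAMP response element TGACGTCA was in 0 of the 112 windows, 3.29% without a summit and 2.31% of all. Windows rich in G and C hold letters rich in A and T less often, and these counts were not adjusted for composition. A match is only a description of letters in this window.

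The locus of highest lower fold on the chromosome lay in PRRC2B (9q, chr9:131393729-131394821), which encodes an RNA-binding protein. Fold was 6.53 in replicate 2 and 5.67 in replicate 3, with 42 and 38 fragments and −log10 q of 13.6 and 11.2. Its summit was 20459 bp inside the gene but 24 bases downstream of an annotated alternative start. It ranked 19 among the autosomal shared loci, so the top of chromosome 9 is not the top of the genome. PHF2, a histone demethylase gene whose upstream sequence is printed above, followed with 5.64 and 5.93 (30 and 33 fragments). ANKS6, which encodes a protein of the primary cilium, had 6.60 and 5.47 (38 and 32 fragments), with the summit 15 bp from its annotated start (chr9:98796021-98796766).

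The other leading loci of 9q lay both at ends and inside genes. The locus between DNLZ, a mitochondrial chaperone gene, and CARD9, an adaptor of innate immune signalling, had fold 5.67 and 5.45 and lay within 1 kb of both genes. SECISBP2, needed to insert selenocysteine into proteins, had 4.98 and 4.97, and its 38 and 36 fragments were also nearly equal. RALGPS1, an activator of the small GTPase Ral, had 5.08 and 6.46, and DENND1A, an activator of a Rab GTPase, had 5.04 and 4.90. Of these 10 loci 4 lay inside a gene and over 1 kb from its ends. Besides PRRC2B these were ECPAS, a proteasome adaptor gene (1130 bp from an end but 309 from an annotated start; 5.11 and 5.30), EGFL7, which encodes a secreted vascular factor (6889 bp from an end and 2829 from a start; 5.59 and 5.09), and FNBP1, a membrane-bending protein gene (10986 bp from an end but 296 from a start; 4.98 and 6.16).

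On 9p the highest locus lay 2535 bp from the forkhead gene FOXD4, near the tip of the arm (chr9:113284-113879), and 99 bp from an end of the long noncoding RNA gene LINC01388. Fold was 5.71 and 5.34 with 31 and 29 fragments. The next loci of the arm were lower. DENND4C, a Rab activator gene, had 4.65 and 4.44. RECK, a membrane-anchored inhibitor of metalloproteinases, had 4.52 and 4.31, and RIC1, part of a Golgi Rab activator, had 4.23 and 4.44. CNTFR, the receptor of ciliary neurotrophic factor, had 4.53 and 4.38 at a summit 1283 bp inside the gene but 155 from an annotated start.

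VCP, an ATPase that extracts ubiquitinated proteins, had 5.06 and 4.09, and MLLT3, a chromatin reader of the elongation machinery, had 4.59 and 3.95. GLIPR2 had 4.8 and 3.93, and FANCG, of the Fanconi anaemia complex, had 3.99 and 3.92 with a summit 2 bp from its annotated start. PHF24 had 3.86 and 4.86 at a summit 24488 bp inside the gene but 569 from an annotated start. VCP and FANCG are close neighbours at 35.1 Mb, just inside the segment with the higher share. The median lower fold was 3.24 on 9p and 3.49 on 9q.

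Peaks called in 1 library only could be as high as shared ones. The 3 highest of replicate 2 lay in DNAJC25-GNG10 (fold 5.65), 29 bp from an end of EPB41L4B (5.15) and 360 bp from an end of FAM219A on 9p (4.95). Those of replicate 3 were nearest to ZFP37 (6.46), EHMT1 (6.33) and CCDC183 (6.0), each over 1 kb from an end. On the chromosome 50.4% of unshared peaks in replicate 2 (64 of 127) and 53.5% in replicate 3 (169 of 316) lay within 1 kb of a gene end. Median fold was 3.74 for shared and 3.58 for unshared peaks in replicate 2, and 3.88 and 3.57 in replicate 3. By gene, 234 genes had a peak of both libraries within 1 kb of an end, 35 of replicate 2 only, 110 of replicate 3 only and 399 of neither.

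The gene best known on 9p, the tumour suppressor CDKN2A, was not bound. Replicate 3 had a peak 649 bp from an end (fold 4.65, −log10 q 5.14, 24 fragments), and the nearest peak of replicate 2 was 451851 bp away. MTAP, an enzyme of methionine salvage beside it, also had a peak of replicate 3 only (231 bp; 3.21). DMRTA1 had a peak of replicate 2 only (351 bp; 3.86), and the nearest peak to CDKN2B, another inhibitor of cyclin-dependent kinases, lay 3131 bp away in replicate 3. None of the 6 genes listed for this neighbourhood was bound (upper limit 45.9%), and the peaks at its gene ends were each in 1 library only. They lie on 9p below 35 Mb, where 7 of 155 genes were bound (4.52%), so this 0 is near the share of the segment.

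Genes of the cell cycle, mitosis and the centrosome were bound about as often as all genes of the chromosome, 6 of 22 or 27.3% (10.7 to 50.2). CDK9, the kinase of transcription elongation, led with 4.30 and 5.01. SPIN1, a chromatin reader first found on the meiotic spindle, had 4.11 and 4.11, and CDC14B, a mitotic exit phosphatase, had 3.7 and 4.49. TUBB4B, a tubulin, had 3.69 and 3.25, CENPP, a centromere protein, had 2.88 and 3.12, and KIF27, a kinesin, had 3.68 and 2.30.

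MELK and CKS2, mitotic genes often counted among FOXM1 targets, were not among them. MELK, a kinase, had a peak of replicate 3 only, 69 bp from the gene end on its start side. That peak had 48 fragments and fold 3.56, and the nearest peak of replicate 2 was 85185 bp away. CKS2, a subunit of cyclin-dependent kinases, had a peak in each library, 593 bp from an end in replicate 2 (fold 3.0, 22 fragments) and 236 bp in replicate 3 (3.20, 25 fragments). Those peaks did not overlap, so CKS2 did not count as bound.

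Genes of transcription and chromatin were bound in 16 of 43 cases, 37.2% (23 to 53.3), with an interval that includes the 28.4% of the chromosome. After PHF2 came ZBTB34, a zinc finger gene (4.73 and 5.63), BRD3, a reader of acetylated histones (5.80 and 4.72), and PRRX2, a homeobox gene (6.47 and 4.51). The forkhead gene FOXE1 had 3.99 and 4.43 and MLLT3 of 9p is given above. Signalling and tumour genes followed with 13 of 30, 43.3% (25.5 to 62.6), again including 28.4%. VAV2, a guanine nucleotide exchange factor, had 5.50 and 4.85 and RAPGEF1, a Rap activator, 4.67 and 5.22, after CARD9. SHC3 had 3.66 and 4.05, RALGDS 3.6 and 3.85, and the receptor NOTCH1 3.41 and 4.84.

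Protein folding, turnover and secretion had 14 of 31 genes bound, 45.2% (27.3 to 64.0), an interval that also includes 28.4%. SEC16A, a scaffold of exit sites of the endoplasmic reticulum, had 4.68 and 4.79, UBAC1 4.12 and 4.71, and DOLK, an enzyme of glycosylation, 4.6 and 4.07, beside VCP. That SEC16A locus lay 200 bp from the finish of the gene and 60 bp from an annotated start of INPP5E. Another shared locus, 82 bp from an annotated start of SEC16A, had a lower fold of 2.62. PSMD5, a proteasome assembly factor, had 4.24 and 3.92. ALG2, of glycan assembly, had 3.88 and 3.79 at a locus it shares with SEC61B of the translocon, so these 2 list members rest on 1 locus. Other members of the list also lie in gene-dense stretches, and the list's share was not adjusted for position.

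Mitochondrial proteins had 7 of 18 bound, 38.9% (17.3 to 64.3), with SLC25A25 (3.65 and 3.97), TOMM5 (3.31 and 3.45) and SLC25A51 (3.94 and 3.21) in the lead, and with ENDOG (3.58 and 2.81) and MRPL41 (3.20 and 2.72) among the others. TOMM5 and SLC25A51 lie on 9p from 37 to 38 Mb, the stretch of high median background. The background was 9.31 and 9.11 fragments at the TOMM5 peaks, but below 8 in both libraries at the SLC25A51 peaks. DNA repair and replication had 4 of 14, 28.6% (8.39 to 58.1): FANCG, RAD23B (4.8 and 3.87), FANCC (2.94 and 3.21) and ENDOG. Ribosome and RNA processing genes had 4 of 13, 30.8% (9.09 to 61.4). DDX31, an RNA helicase, and GTF3C4, of the RNA polymerase III machinery, share 1 locus (3.31 and 4.21), beside RPL7A (3.41 and 3.21) and SURF6 (4.68 and 2.97). The intervals of these 3 lists all include the 28.4% of the chromosome.

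The surfeit cluster, a block of tightly packed genes, several of them housekeeping genes, on 9q (from SURF6 at 133328776 to ADAMTS13 at 133459386), had the highest share of the lists, 7 of 9 (77.8%, 39.99 to 97.2). STKLD1 had 3.99 and 5.49 and ADAMTS13, the protease of von Willebrand factor, 4.15 and 2.73. The ADAMTS13 locus lay 709 bp from the finish of that gene but 117 bp from an annotated start of CACFD1. RPL7A and MED22 share a locus, and SURF1 and SURF2 share another (2.48 and 3.49), so the 7 genes rest on 5 loci. SURF4 and REXO4 were not bound by the rule of gene ends, though the STKLD1 locus lay 255 bp from an annotated start of SURF4. The members are neighbours and are not independent of each other.

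Genes of hepatocyte products and metabolism were bound in 4 of 24 cases, 16.7% (4.74 to 37.4), with an interval that includes the share of the chromosome. C8G, a complement subunit, had 4.19 and 4.04, SLC27A4, a fatty acid transporter, 3.81 and 3.96, and ACO1, the cytosolic aconitase that senses iron, 3.72 and 4.2 on 9p. The C8G locus lay 772 bp from an end of C8G but 267 bp from an annotated start of FBXW5. ASS1, the urea cycle enzyme argininosuccinate synthase, had a weak locus 30 bp downstream of its annotated start. Fold there was 2.56 and 3.38, with −log10 q of 1.82 and 4.22, and 29 and 30 fragments. A peak of replicate 3 only lay near 7 further genes of this list and of replicate 2 only near 1.

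Among the lists, those without any peak near a gene end held tandem or duplicated copies. None of the 17 type I interferon genes had a peak of either library within 1 kb of an end (upper limit 19.5%), nor had any of the 25 olfactory receptor genes (13.7%) or the 20 protein-coding members of duplicated pericentromeric families (16.8%). Over the whole chromosome 399 of 778 genes had no such peak, and on 9p 149 of 216. The interferon genes lie on 9p below 35 Mb, where only 7 of 155 genes were bound (4.52%), so their 0 is near that share. Near-identical copies share reads, and how the authors treated reads with several matches is not given in the sources used here, so these zeros are uncertain. With those families left out, the share of bound genes on the chromosome was 29.2%.

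**Figure D5:**
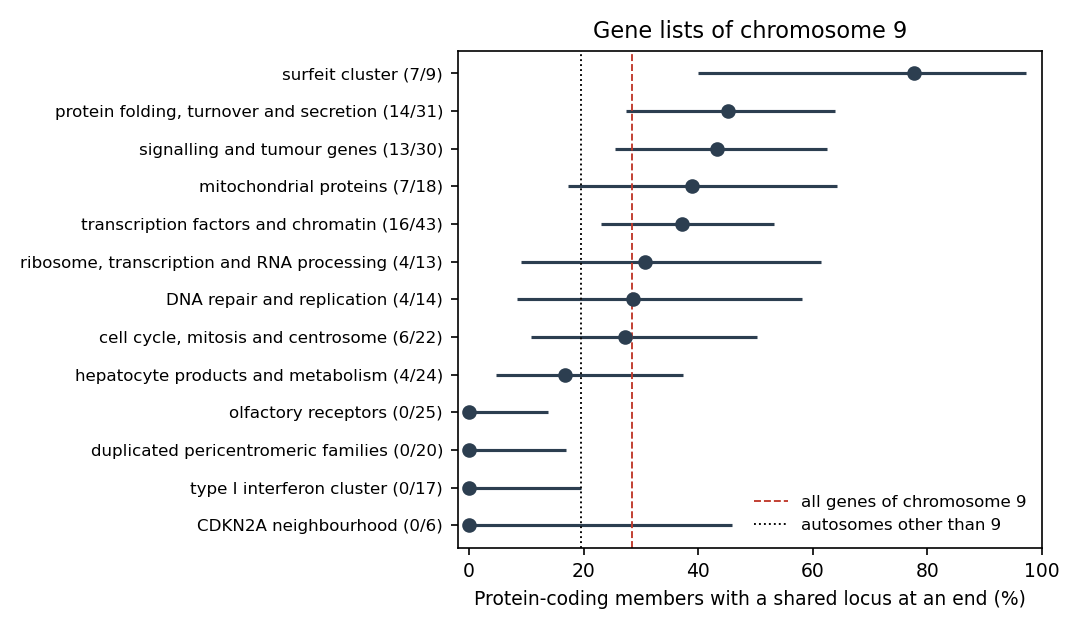
Share of protein-coding members with a shared locus at an end (x axis, percent, exact 95% intervals) for the 13 gene lists of chromosome 9 (y axis, with bound and total members), beside all genes of chromosome 9 (red dashed, 28.4%) and the other autosomes (black dotted, 19.5%). The surfeit cluster is highest at 77.8% and 4 lists have no bound member.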

How the data were processed

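Peak lists of 2 anti-FOXM1 ChIP libraries were used; the input had no peak list used here. The submitters' processing notes name BWA, MACS2 2.2.7.1 and CASAVA 1.4 with build GRCh38, and give them no role or parameters. Peaks were listed per library, not on pooled reads. In the deposited lists the fold enrichment at the summit is a linear ratio over local background, with a pseudocount of 1. The deposited p and q are given as −log10. The deposited score was the −log10 q rescaled and was not used further, and the deposited summit offset gave each summit's place.

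Shared peaks overlapped by at least 1 bp (bedtools 2.31.1 gave 5674 for replicate 2 on the autosomes, a difference of 0). Gene positions, starts and sequences came from RefSeq (GRCh38.p14). The start table covered 21 autosomes, and the other one was not used for starts here. The control of the peak calling was not stated. Fragments and background were rebuilt by taking fold as (scaled fragments + 1) over (background + 1) and p as the Poisson upper tail. This gave scales of 0.848 and 0.869 and matched 100% of peaks within 0.001 of the −log10 p. On 1500 simulated peaks for each library 99.9% (replicate 2) and 100% (replicate 3) of counts were exact, and shuffled p left 1.13% and 0.8% rebuilt. Read totals are unknown here, so depth is given as fragments per peak.

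With 1 group and no control list no test was made; shares have exact Clopper-Pearson 95% intervals. The members and the 13 gene lists (275 entries, 271 different genes, 268 protein-coding and matched) were chosen with earlier results of these data known. Named were the 10 highest shared loci of each arm by lower fold, up to 6 bound members a list (some are not reported here), CDKN2A, CKS2, MELK and ASS1, the 3 highest unshared peaks of each library and the 2 loci on each side of the 1 kb limit. Other genes named (among them WHRN, NRARP, DCAF10, MTAP, CDKN2B, DMRTA1, HABP4, NACC2, UBE2R2 and the facing pairs) were chosen after their values were seen. Alternatives were stricter q and fold, other rules for sharing, windows of 500 bp and 5 kb, single libraries and regions left out. Python 3.11.15, numpy 2.4.6, pandas 2.3.3, SciPy 1.17.1 and matplotlib 3.10.9 were used.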

Additional observations from a re-analysis of the deposited data

How the results depend on the processing

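The 2 gaps in bound genes and the difference in median fold kept their direction under each alternative run for them. Other windows, left-out regions and annotated starts were not run for the share of loci or the median fold. No paired analysis was possible because the lists give 1 group of libraries and no groups were compared between libraries. The share of autosomal shared loci on chromosome 9 (6.25%) was 7.07% with −log10 q of at least 5, 5.25% with fold of at least 4, 5.91% with summits within 100 bp and 7.08% with 50% reciprocal overlap; single libraries gave 5.82% to 5.94%. The gap in bound genes to the other autosomes (8.90 points) was 3.39, 1.22 and 3.33 points under the first 3 of these settings and 11.0 with 5 kb, and 8.89 to 11.5 in single libraries. The 1.22 points at the fold limit were below the standard deviation of the gap between single libraries (1.83 points). Chosen after seeing the data, leaving out 135 to 140 Mb gave 5.49 and annotated starts 12 points. The gap between 9q and 9p (22.7 points) was 7.65, 7.40, 12.2 and 15.7 in the same order of 4 settings, and 20.9 to 27.9 in single libraries. It was 15.1 without 9q above 125 Mb and 30.2 without 9p above 35 Mb, both also chosen after seeing the data. The share of loci at gene ends (66.0%) was 69.6% at −log10 q of at least 5, 63.1% with near summits, 63.4% with reciprocal overlap, 54.8% with 500 bp and 78.3% with 5 kb, and 60.5% to 61.8% in single libraries. The difference in median lower fold (-0.069) was -0.082, -0.0080, -0.041 and -0.060 in the order of the 4 settings, and -0.075 to -0.071 in single libraries. Stricter settings leave fewer loci by construction (79 with the q limit, 77 with the fold limit); other causes were not tested.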

Other observations

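MicroRNA genes and long noncoding RNA genes of chromosome 9 were not part of the comparisons. Of 76 microRNA hairpins in the RefSeq table (GRCh38.p14) 3 had a shared summit within 1 kb, each at the locus of a protein-coding gene: MIR3960 (190 bp, CDK9), MIR4674 (249 bp, NOTCH1) and MIR4479 (415 bp, TRAF2, fold 3.24 and 3.17). For MIR4674 and MIR4479 the mature sequences are shown with the seed (bases 2 to 8) in capitals, and their seeds differ.
hsa-miR-4674: cUGGGCUCgggacgcgcggcu
hsa-miR-4479: cGCGCGGCcgugcucggagcag

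The let-7 cluster of 9q had a shared locus at an end of its host gene, upstream of the hairpins, and none at the hairpins. At chr9:94166153-94166816 fold was 4.73 and 4.23, with the summit 147 bp from an end of MIRLET7A1HG and 9552 bp from MIRLET7A1. Of the 113 loci away from ends of protein-coding genes 26 lay within 1 kb of an end of another annotated gene, and 25 of those were long noncoding RNA genes. One such locus, beside the nuclear receptor gene NR4A3, had fold 3.78 and 4.8 with the summit 2084 bp from that gene. In 5 Mb windows with at least 10 peaks the Spearman correlation of median background with the share of bound genes was -0.21 in replicate 2 and -0.13 in replicate 3 over 12 windows of chromosome 9, and 0.48 and 0.49 over 257 windows of the other autosomes. These are descriptions of windows that share libraries and depth.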
